A study of Rattus norvegicus with 9 samples.

Results

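Edn1, Ccn1, Ccn2, Plaur and Thbs1 encode secreted or surface proteins that are classically studied in cells given serum, and they were followed here in rat cortical neurons whose electrical activity was allowed to return. The genes were chosen by name: all array probes that carry one of these symbols or its older form (Cyr61 for Ccn1, Ctgf for Ccn2) were taken. They were put together with earlier results of the same arrays in view, chiefly the level 45 min after washout against the level in the toxin, so the values of that comparison are given as a description. All 5 genes were on the array, with 6 of its 41012 probes. A group in which each of its 3 arrays read the probe well above background was required for the fit. That left 4 of these 6 probes, for Edn1, Ccn1 and Ccn2, in a fit that held 25786 genes or features in all. Plaur and Thbs1 were not in it. At 45 min the level of Ccn1 was 19.7-fold that in TTX, with 3 arrays per group. Edn1 was above background on all 3 arrays at 45 min but on 1 of 3 in TTX, and its computed ratio of 8.63 (a log2 difference of 3.11) became 1.22 on the log2 scale, and was no longer called, with another background correction. Ccn2, the closest relative of Ccn1, was read at similar levels in all groups, Plaur lay at the edge of detection and Thbs1 below it.

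The study measured total RNA of neurons dissociated from the cortices of prenatal rat pups and cultured in Neurobasal, supplemented with B27 or NS21, until 11 to 15 days in culture. Every culture had been kept for 48 h in tetrodotoxin (TTX), which blocks voltage-gated sodium channels and with them action potentials. A group of 3 arrays was taken in the toxin (TTX), and groups of 3 arrays each 15 min (W15) and 45 min (W45) after removing the toxin with 3 changes of regular medium. No genotype or strain is given, and the labels name no group that was washed back into toxin, so the return of activity and the change of medium cannot be told apart. The labels also do not say whether replicates were separate cultures, so p-values measure the spread between these samples, which may be technical.

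As background, endothelin-1 is cut from the Edn1 precursor by endothelin-converting enzymes and acts on the G-protein-coupled receptors Ednra and Ednrb; it is best known as a constrictor of blood vessels. Ccn1 and Ccn2 are cysteine-rich matricellular proteins that bind integrins and heparan sulfate, and in fibroblasts both are immediate early targets of serum and of the YAP and TEAD factors. Plaur is the surface receptor of the protease urokinase, and Thbs1 is a large matrix glycoprotein that binds Cd47 and Cd36 and, in brain, is released by astrocytes. Serum acts on such genes through the serum response factor SRF, either with ternary complex factors driven by ERK or with the actin-sensing MRTF coactivators.

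The reagents that read the members were 60-base probes, and the opening 30 bases of those for Edn1 and Ccn1, the members called at 45 min, are shown so that the transcript stretch each value stands for can be found. The probe of Edn1 (NM_012548) spans bases 28306864 to 28306923 of chromosome 17 (all probe positions are those the files list for the rn3 build) and was printed in 10 spots of every array. Those of Ccn1 (NM_031327) lie on chromosome 2 at 243811128 to 243811187 (the brighter probe) and at 243811662 to 243811721 (the dimmer probe), with starts 534 bases apart. The probe of Ccn2 (NM_022266) was also printed in 10 spots. Plaur (NM_134352) was read on chromosome 1 at 79791146 to 79791205, and the files list no position for the probe of Thbs1 (NM_001013062). The probes of Ccn1 and Ccn2, which are related genes, shared runs of at most 7 bases with each other.
Edn1 probe: catttcagggagaaactccaaagtccatgc
Ccn1 brighter probe: ttgaatgtttttatttatcaaaatgtagct
Ccn1 dimmer probe: ccacaagttcagggactaaaggtctcctgg

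The 250 bases before the annotated start of Edn1, Ccn1 and Ccn2 are shown from RefSeq (GRCr8 build), 5′ to 3′ on the strand of the gene, because Ccn1 and Ccn2 are relatives that were read so differently after washout. Capitals mark matches, on either strand, to 7 motifs. GGAATG stands for the TEAD factors that carry YAP to DNA. The short form of the cAMP response element is written TGACG and lies inside the full element, TGACGTCA. The GATA factors were searched as AGATAA, and the TATA box of the core promoter as TATAAA. The last are the AP-1 site of Fos and Jun proteins, TGANTCA, and the CArG box bound by SRF, which is given by its name alone.
Edn1, chr17:22666688-22666937, minus strand: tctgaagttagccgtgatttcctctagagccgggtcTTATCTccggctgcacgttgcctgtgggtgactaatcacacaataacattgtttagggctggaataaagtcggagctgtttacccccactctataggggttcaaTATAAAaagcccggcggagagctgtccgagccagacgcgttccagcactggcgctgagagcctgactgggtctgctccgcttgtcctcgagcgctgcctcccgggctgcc
Ccn1, chr2:237225690-237225939, minus strand: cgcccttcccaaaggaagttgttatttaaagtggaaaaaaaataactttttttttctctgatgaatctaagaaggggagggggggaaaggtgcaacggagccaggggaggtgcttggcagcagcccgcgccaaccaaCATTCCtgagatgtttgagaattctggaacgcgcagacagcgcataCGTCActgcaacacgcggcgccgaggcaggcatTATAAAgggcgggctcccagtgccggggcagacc
Ccn2, chr1:22624615-22624864, minus strand: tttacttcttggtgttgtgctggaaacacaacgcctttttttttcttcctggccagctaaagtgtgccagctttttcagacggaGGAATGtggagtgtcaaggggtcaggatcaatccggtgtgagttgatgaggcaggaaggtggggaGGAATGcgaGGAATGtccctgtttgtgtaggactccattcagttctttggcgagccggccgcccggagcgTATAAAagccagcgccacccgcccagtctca
Ccn2 held 3 TEAD matches, from -166 to -161, -101 to -96 and -92 to -87 relative to the start, and Ccn1 held 1, from -113 to -108. Of all 33469 rat promoter windows of this length, 12.1% held at least 1 TEAD match. Ccn1 also held the short form of the cAMP response element from -67 to -63 (in 18.2% of windows), and Edn1 a GATA match from -214 to -209 (in 10.3%). A TATA match, found in 12.9% of windows, was present in all 3 sequences. It lay from -110 to -105 in Edn1, -34 to -29 in Ccn1 and -31 to -26 in Ccn2, so its distance from the annotated start differed. Among the members whose windows are not printed, Plaur held an AP-1 match from -83 to -77 (in 6.34% of windows) and Thbs1 a TEAD match from -47 to -42. None of the 5 windows held a CArG box (in 1.5%) or a full cAMP response element (in 1.59%), which says only that these letters are not in this stretch.

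Levels are given as the log2 processed signal minus the 75th percentile of the same array, so a level of 0 equals that percentile, and levels of different probes are not compared with each other. The 75th percentile lay between 1563 and 2526 signal units, and 72.4 to 77.9% of probes stood well above background on an array. The activity-regulated genes Arc, Fos, Npas4 and Egr1 were 39.9-fold, 97.4-fold, 529-fold and 18.2-fold higher at 45 min than in TTX by limma (adjusted p = 9.51e-06, 1.93e-05, 8.39e-06 and 8.39e-06). Npas4 was above background on 0 TTX arrays, so its ratio of 529 rests on undetected signal. Over the lowest signal well above background on the TTX arrays its ratio was 199.8. All features together had a median log2 difference from TTX of 0.05 at 15 min, and the same, 0.05, at 45 min. These medians were -0.15 and -0.21 without scaling between arrays and 0.21 and 0.12 with a model-based background correction (normexp). The arrays lay on 3 slides: TTX replicate 1, W15 replicate 3 and W45 replicate 1 shared slide 1, the other TTX arrays shared slide 2, and the remaining 4 arrays shared slide 3. The number of arrays limits the precision, and with 3 arrays a side the smallest p of an exact permutation test is 0.1.

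Ccn1, the matricellular ligand of integrins, was detected throughout: both of its probes were well above background on all 9 arrays. On the brighter probe the TTX arrays read -3.51, -3.47 and -3.91, the W15 arrays -2.44, -2.60 and -3.22, and the W45 arrays 0.39, 0.65 and 0.96. On the dimmer probe the TTX arrays read -5.58, -4.90 and -5.28, the W15 arrays -4.20, -3.87 and -4.60, and the W45 arrays -1.70, -1.23 and -1.18. On both probes the 3 groups were fully separated, in the order TTX, W15, W45. The mean level of the brighter probe was -3.63 ± 0.24 (SD, n = 3) in TTX, -2.75 ± 0.41 at 15 min and 0.67 ± 0.28 at 45 min.

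Between TTX and 15 min the difference in Ccn1 was 0.87 ± 0.24 (SE, n = 3 arrays per group) on the log2 scale for the brighter probe, a ratio of 1.83. It was not called: the limma p was 0.0046 and the adjusted p over all features 1. The dimmer probe, in a fit of every probe, gave 1.03 ± 0.24, a ratio of 2.04, with an adjusted p of 0.988. The groups did not overlap on either probe, as was so, with 15 min higher, for 9.68% of all features. By size the brighter probe ranked 69 of 25786 features. Slide 1 alone, which held a single array of each group, gave 0.29 on the brighter and 0.98 on the dimmer probe. With slide as a fixed block the brighter probe gave 0.38 (limma adjusted p = 0.999). Over the alternative fits the value ran from 0.38 to 1.11 and the adjusted p from 0.33 to 1.

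At 45 min Ccn1 stood 19.7-fold above TTX on the brighter probe, a log2 difference of 4.30 ± 0.24 (SE, n = 3 per group), and 14.8-fold on the dimmer probe (3.88 ± 0.24). The brighter probe ranked 6 of all features by size. Most of that distance was covered after 15 min, since the log2 difference of 45 against 15 min was 3.42 ± 0.24 on the brighter probe and 2.85 ± 0.24 on the dimmer. The lowest W45 array of the brighter probe exceeded the highest W15 array by 2.83. On slide 1 the 45 min difference from TTX was 3.90 on the brighter and 3.88 on the dimmer probe. Between 45 and 15 min it was 3.61 and 2.90 on slide 1 and 3.33 and 2.83 on slide 3.

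Edn1, the endothelin-1 precursor, was at the edge of detection until 45 min. The TTX arrays read -6.98, -7.34 and -7.30, the W15 arrays -7.23, -7.51 and -7.30, and the W45 arrays -4.32, -3.99 and -3.98. TTX and W15 overlapped, and the lowest W45 array lay 2.66 above the highest TTX array and 2.91 above the highest W15 array. A probe was counted as above background where a share over 0.5 of its spots were, and by that measure Edn1 was detected on 1 TTX array, on 0 W15 arrays and on all 3 W45 arrays.

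The 10 spots of the Edn1 probe show the same step within each array. In TTX, 7, 2 and 2 of the 10 spots were well above background, at 15 min 4, 1 and 3, and at 45 min all 10 on every array. The SD over the 10 spots was between 0.30 and 0.63 in TTX and between 0.07 and 0.40 at 45 min. The dimmest single spot at 45 min, at -5.09, was brighter than the brightest in TTX, at -6.25, and at 15 min, at -6.75. Spots of an array are repeat readings of the same labelled RNA and were averaged to 1 value.

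**Figure D1:**
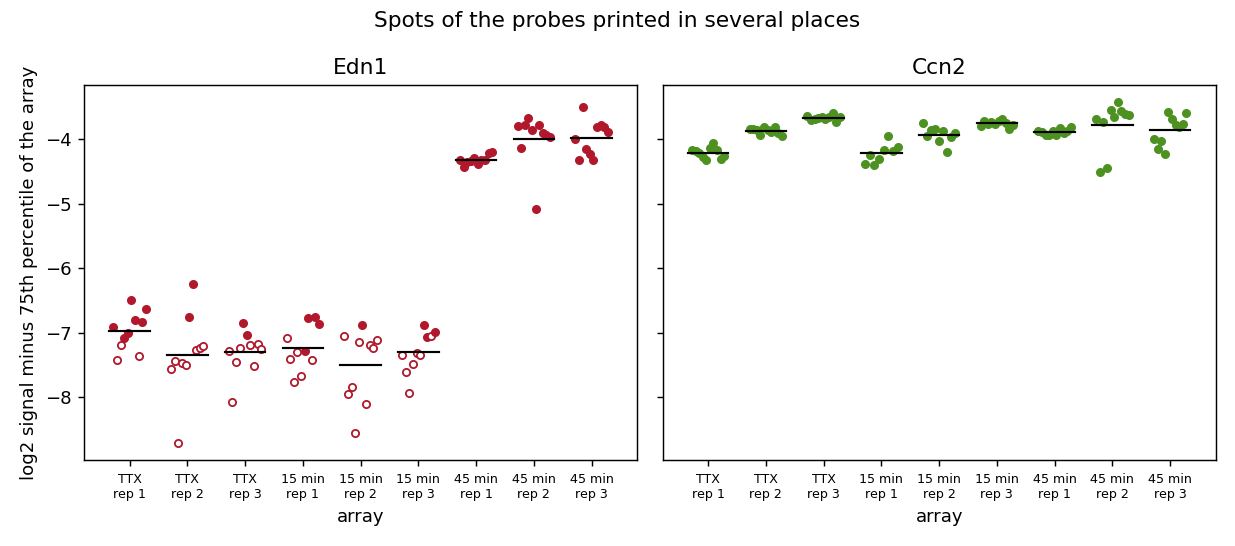
Spots of the Edn1 probe (left) and the Ccn2 probe (right) on each of the 9 arrays. The y axis is the log2 signal minus the 75th percentile of the array, each point is a spot (filled where well above background, open where not), spots marked as outliers are left out and the line is the mean of the array. Edn1 spots at 45 min lie at -5.09 or above, whereas those of TTX and 15 min lie at -6.25 or below and are mostly open; Ccn2 spots lie between -4.51 and -3.43 in every group.

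With 1 TTX array and 0 W15 arrays above background, a difference in Edn1 between TTX and 15 min was not detectable at this signal (computed log2 difference -0.14, limma adjusted p = 1). At 45 min the computed ratio to TTX was 8.63, a log2 difference of 3.11 ± 0.16 (SE, n = 3 per group), with the TTX level resting on 1 array above background and 2 that were not. Against 15 min, where no array detected it, the 45 min mean of Edn1 was 8.18-fold a detection limit. That limit was the lowest signal that counts as well above background (or the signal of Edn1, if higher) on the W15 arrays. It is no ceiling for undetected signal: W15 replicate 1 read Edn1 at -7.23, above its lowest such signal of -7.32. The 8.18 is therefore not a lower bound. On slide 1 the 45 min difference was 2.66 from TTX and 2.99 from 15 min, and on slide 3 the latter was 3.38. Normexp adds an offset of 50 to each signal. With it the difference was 1.22 from TTX and 0.51 from 15 min, and neither was called. On that scale W15 replicate 1 stood apart, reading Edn1 at -2.66 where the other W15 arrays read -4.51 and -4.62. This was not particular to Edn1. Every other member probe also read highest there among the W15 arrays, with Plaur at -2.63 and Thbs1, never well above background, at -2.66. Without W15 replicate 1 the difference of Edn1 from TTX was again 1.22, with an SE of 0.15 in place of 0.45, and was called. This setting was chosen after seeing the data.

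**Figure D2:**
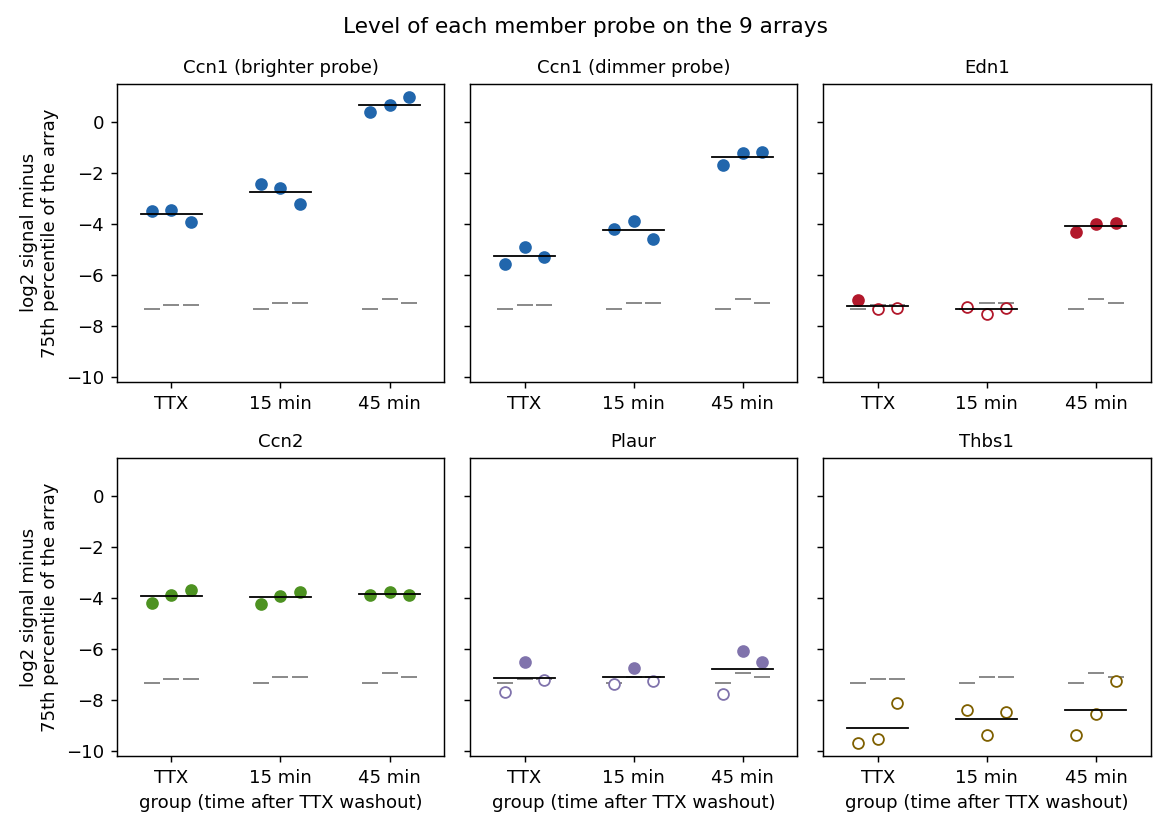
Level of each member probe on the 9 arrays. The y axis is the log2 signal minus the 75th percentile of the array, filled points are arrays on which the probe stood well above background, open points those on which it did not, black lines are group means and grey ticks the lowest signal well above background on each array. Ccn1 arrays lie in the order TTX, 15 min, 45 min on both probes (the difference at 15 min was not called), and Edn1 arrays are filled throughout at 45 min, whereas Ccn2 lies near -3.9, Plaur lies around the limit and Thbs1 below it.

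Ccn2, the close relative of Ccn1 and like it a textbook YAP and TEAD target, was read at similar levels in all groups. The TTX arrays read -4.21, -3.87 and -3.67, the W15 arrays -4.22, -3.93 and -3.76, and the W45 arrays -3.89, -3.78 and -3.87. The 3 groups overlapped, and all usable spots on all 9 arrays were well above background. The log2 difference from TTX was -0.05 ± 0.17 (SE, n = 3 per group; limma adjusted p = 1) at 15 min, with a 95% interval from -0.44 to 0.34. At 45 min it was 0.07 ± 0.17 with an interval from -0.32 to 0.46. On slide 1 the differences were 0.45 and 0.33. With slide as a fixed block they were 0.33 ± 0.25 and 0.45 ± 0.25 (SE), so the intervals above hold for the fit without that block.

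Plaur, the urokinase receptor, was read near the detection limit. The TTX arrays read -7.68, -6.51 and -7.19, the W15 arrays -7.35, -6.73 and -7.23, and the W45 arrays -7.78, -6.07 and -6.51. The probe was above background on 1 TTX, 1 W15 and 2 W45 arrays, the groups overlapped, and no fold is given. Thbs1, the thrombospondin, was not well above background on any of the 9 arrays, with signals from -9.66 to -7.24. A difference in either gene was not detectable at this signal.

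**Figure D3:**
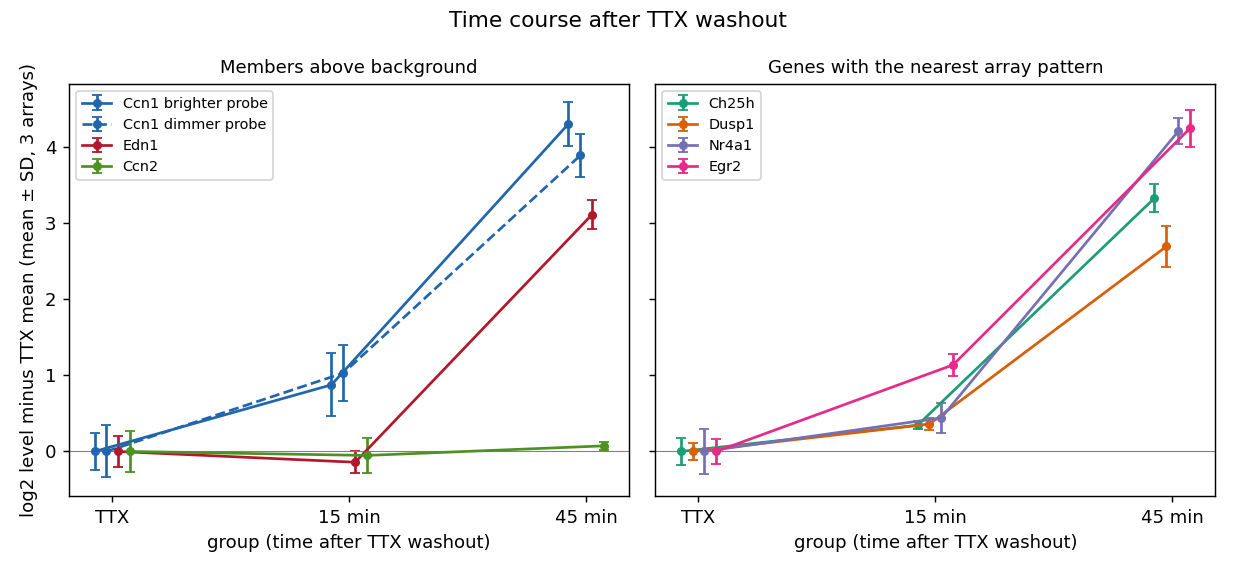
Time course of the members above background (left) and of the genes whose pattern over the 9 arrays was nearest to Edn1 or Ccn1 (right). The y axis is the log2 level minus the TTX mean of the same probe, points are means of 3 arrays and bars are SDs. Both Ccn1 probes are near 1 at 15 min and near 4 at 45 min, Edn1 is near 0 at 15 min, where it was mostly not above background, and near 3 at 45 min, and Ccn2 lies near 0.

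Of the 3 member genes in the fit, 0 were called at 15 min against TTX by limma (0.0233% of all features were called higher and 0% lower). Under an unadjusted p of 0.05 there was 1 member, Ccn1, beside 2.35% of all features that were higher. At 45 min against TTX, 2 were called higher, Edn1 and Ccn1, beside 0.186% of all features called higher and 0.0233% called lower. The same 2 were called at 45 against 15 min, beside 0.12% higher and 0.0116% lower. Their groups did not overlap at 45 min, as was so, with 45 min higher, for 7.97% of all features against TTX and 3.98% against 15 min. Nothing is read from the last counts, since the genes were chosen with knowledge of the 45 min arrays, and the 15 min comparison shares its TTX arrays with that choice.

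The patterns nearest to the members were taken as the smallest root mean square difference over the 9 arrays after centring each gene on its own mean, among genes with a symbol. For Edn1 these were Ch25h, a cholesterol hydroxylase (0.28 log2 units), Dusp1, a phosphatase of MAP kinases (0.45), and Nr4a1, an orphan nuclear receptor (0.46). Ch25h had log2 differences from TTX of 0.34 at 15 min and 3.32 at 45 min. For Ccn1 they were Nr4a1 (0.37), the zinc-finger factor Egr2 (0.41) and Ch25h (0.52). Egr2 had log2 differences of 1.14 at 15 min and 4.24 at 45 min, beside 0.87 and 4.30 for Ccn1. For Ccn2, whose own spread over the arrays was 0.18, they were Ptk2b (0.07), Ak3 (0.07) and Ramp2 (0.08). For Edn1 and Ccn1 the distance includes the 45 min step that was in view when the members were chosen, so it is description only. Edn1 was above background on 1 TTX and 0 W15 arrays, so a course shared with its neighbours before 45 min was not measured.

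The rest of each member's own system was measured on the same arrays, with lists drawn from textbook knowledge after earlier results were known. In the endothelin system, 0 of 5 measured genes besides Edn1 were called in any comparison. Of all features, at most 0.186% were called higher and 0.0233% lower in any comparison, so 0 in so short a list is no finding. The median log2 difference at 45 min against TTX was 0.04, beside 0.05 for all features. The converting enzyme Ece1 stood at 2.92 ± 0.08 (SD, n = 3) in TTX and 2.96 ± 0.04 at 45 min, and the receptors Ednrb and Ednra had log2 differences of -0.03 ± 0.41 and -0.08 ± 0.30 (SE). Edn2, another endothelin ligand, had 0.71 ± 0.37 at 45 min (adjusted p = 0.811), and the probe of Edn3 was above background on 0 arrays. Ece1, Ednra and Ednrb were well above background on all 9 arrays.

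In the CCN family, 0 of 3 measured relatives (Ccn3, Ccn4 and Ccn5) were called. Beside this and the other counts of 0 here, at most 0.186% of all features were called higher and 0.0233% lower in any comparison. Ccn3, which is often described as opposing Ccn2, stood at 2.75 ± 0.04 (SD, n = 3) in TTX, 2.61 ± 0.12 at 15 min and 2.75 ± 0.16 at 45 min. Ccn4 and Ccn5 had log2 differences of -0.33 ± 0.25 and -0.15 ± 0.26 (SE) at 45 min. In the plasminogen activator system, Plau, the urokinase that Plaur binds, and Plg, the zymogen of plasmin, were above background on 0 arrays. Plat, the tissue-type activator, had -0.26 ± 0.17 (adjusted p = 0.843), and the inhibitor Serpine2 had -0.06 ± 0.14. Among the thrombospondins and their receptors 0 of 5 measured genes were called, with Thbs2 at 0.16 ± 0.34, Thbs4 at -0.06 ± 0.16 and the receptors Cd47 and Cd36 at -0.01 ± 0.20 and -0.23 ± 0.23. Of the integrins and LRP receptors that bind such ligands, 0 of 7 were called. Lrp1 had 0.53 ± 0.22 (limma adjusted p = 0.777), Itga5 -0.42 ± 0.40 and Itga6 0.41 ± 0.33. Itgav, the alpha chain shared by several CCN receptors, had 0.05 ± 0.13. Members aside, the endothelin, CCN, plasminogen activator and thrombospondin lists held 0 genes at an unadjusted limma p under 0.05 against TTX. This was so at 15 min and at 45 min. The integrin and LRP list held 0 at 15 min and 1, Lrp1, at 45 min. Of all features, 2.35% were higher at such a p at 15 min, and no share is given at 45 min. Nothing is read from 0 in lists this short.

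With the members left out, calls among the SRF and YAP targets at 45 min against TTX lay in 1 of the 3 lists. The called member Ccn1 belongs to the YAP and TEAD list. A difference between the lists was not tested. Of the 12 SRF targets of the ternary complex factor branch, 9 were called higher, beside 0.186% of all features, and 0 lower. The list had a median log2 difference of 4.19. The called genes were Fos, Arc, Egr4, Junb, Egr2, Nr4a1, Egr1, Ier2 and Egr3. Egr3, the smallest of these, rose by 1.34 ± 0.19 (SE, n = 3 per group; limma adjusted p = 0.032), and Fosb (0.95 ± 0.20, adjusted p = 0.218), Srf itself (0.31) and Mcl1 (0.16) were not called. Of 12 measured targets of the MRTF branch, mostly cytoskeletal genes, 0 were called, with a median of 0.17 and a range from -0.26 for Zyx to 0.27 for Tagln; Vcl had 0.16 ± 0.13 and Actb 0.12 ± 0.14. Of 18 measured YAP and TEAD targets besides Ccn1 and Ccn2, 0 were called, with a median of 0.18 and a range from -0.17 for Igfbp3 to 0.40 for Nuak2. In that list Ankrd1, Amotl2 and Axl had 0.01 ± 0.31, -0.08 ± 0.24 and 0.31 ± 0.21, beside the 4.30 of Ccn1. Members aside, the MRTF list and the YAP and TEAD list also held 0 genes at an unadjusted limma p under 0.05 against TTX. This was so at 15 min and at 45 min. Of all features, 2.35% were higher at such a p at 15 min, and no share is given at 45 min. The ternary complex factor list was filled with well-known activity genes, so its count is no independent evidence.

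At 15 min 4 of the 12 genes of the ternary complex factor branch were called higher (Fos, Junb, Egr1 and Egr4), beside 0.0233% of all features. Their list had a median of 1.07. Since it was filled with well-known activity genes, this count is no independent evidence either. Fos rose by 4.86, Junb by 3.23, Egr1 by 2.10 and Egr4 by 2.08 on the log2 scale (limma adjusted p = 0.0016, 0.00698, 0.00681 and 0.00681). No gene of the MRTF list (median 0.06) or of the YAP and TEAD list (median 0.08) was called at 15 min; Ccn1, with 0.87, exceeded the highest other value of that list, 0.33. A fixed block for slide left 0 of the 4 calls, and with it 0 of all 25786 features were called higher at 15 min.

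The other serum-response genes, mostly for secreted and surface proteins and their regulators, were counted in the same way. Of 21 measured genes, 2 were called higher at 45 min against TTX, beside 0.186% of all features: Fosl1, an AP-1 partner of Fos (2.85 ± 0.34, adjusted p = 0.0108), and Ptgs2, the inducible cyclooxygenase (1.26 ± 0.14, adjusted p = 0.00848). Both were also called at 45 against 15 min, and their log2 differences at 15 min against TTX were 0.10 and 0.05. The chemokine gene Cxcl1 had 2.26 ± 0.36 (limma adjusted p = 0.062) and was not called. Its W45 arrays lay above its TTX arrays, as was so for 7.97% of all features. The median of the list was 0.14. The growth factor gene Hbegf (0.08 ± 0.25) and the tissue factor gene F3 (0.32 ± 0.16) were not called. Lif had -0.53 ± 0.40 and Il11 -0.74 ± 0.26 (adjusted p = 0.88 and 0.707). Il6, Mmp3, Ereg and Adamts1 were above background on 0 arrays. Over all lists, 11 of 85 measured genes that are no members were called higher and 0 lower at 45 min against TTX. Of all features, 0.186% were called higher and 0.0233% lower there. At 45 against 15 min, 8 list genes were called higher and 0 lower, beside 0.12% and 0.0116% of all features.

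**Figure D4:**
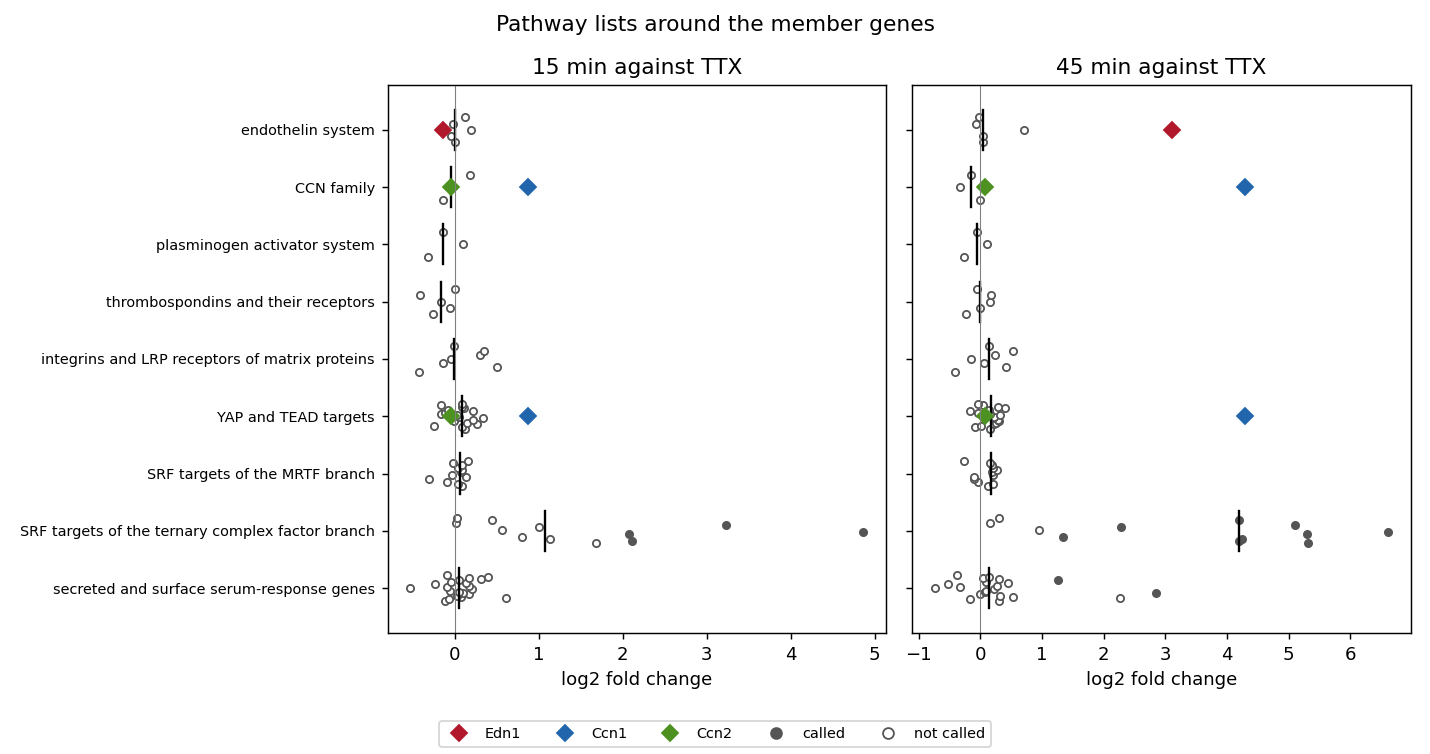
Log2 fold change of the genes in each pathway list at 15 min (left) and 45 min (right) against TTX, on separate x scales. Each circle is a gene (filled where called by limma, open where not), diamonds are Edn1, Ccn1 and Ccn2, and the black line is the median of the list without the diamonds. Filled circles lie in the ternary complex factor list. At 45 min Fosl1, an AP-1 factor, and Ptgs2, an enzyme, are also filled, in the list labelled secreted and surface serum-response genes. In the endothelin, CCN and YAP and TEAD lists the diamonds of Edn1 and Ccn1 lie farthest to the right at 45 min.

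Edn1 and Ccn1 are also made by cells other than neurons, and the cultures held transcripts of such cells. All 9 neuronal markers, among them Rbfox3, Map2, Snap25 and Slc17a7, were well above background on all 9 arrays. So were 5 of 6 astrocyte markers, 5 of 5 oligodendrocyte markers, 7 of 8 markers of mural cells and fibroblasts and 5 of 8 endothelial markers, whereas Tek (endothelial) and the microglial Aif1 and Cx3cr1 were above background on no array. In these bulk samples fewer cells of a type and less RNA per cell cannot be told apart. The summed endothelial signal, in multiples of the 75th percentile, was 0.246 to 0.310 in TTX, 0.249 to 0.304 at 15 min and 0.260 to 0.357 at 45 min. For mural and fibroblast markers it was 11.7 to 15.0, 10.2 to 15.9 and 12.8 to 15.9, and for astrocytes 73.2 to 86.7, 75.5 to 83.8 and 66.9 to 89.3. Microglial markers summed to 0.266 to 0.313, 0.243 to 0.279 and 0.134 to 0.290. The ranges of the 3 groups overlapped in each of these lists. No marker was called in any comparison, beside at most 0.186% of all features called higher and 0.0233% lower. Esam (endothelial) had the largest difference at 45 min, 0.998 (limma adjusted p = 0.762). Which cells made the Edn1 and Ccn1 transcripts was not tested.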

How the data were processed

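Agilent rat arrays of design 014879 were read in the Cy3 channel with Feature Extraction 9.5.3.1, per the file headers; the submitters' processing notes give version 9.5. The deposited processed intensity has had background subtracted and a spatial trend removed on each array, per the file headers, and arrays were not scaled to each other. The value table deposited for the series holds the same intensity (largest difference 0) and was the alternative without scaling. Of 45018 spots, 1639 control spots were left out, spots marked as outliers were set to missing, repeated spots of a probe were averaged as log2 values, and the 75th percentile of each array was subtracted. A probe was kept when well above background (a share over 0.5 of its spots) on all 3 arrays of at least 1 group. Probes were named through the RefSeq table of GRCr8 (20100 of 41012 matched), and the brightest kept probe stood for its gene.

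All 9 arrays were fitted with limma 3.58.1 in R 4.3.3, with a mean per group and two-sided moderated tests; p-values were adjusted by Benjamini-Hochberg over all 25786 features, and those under 0.05 after adjustment were called. The fit was tested on simulated data. Figures used matplotlib 3.10.9 and Python 3.11.15. The members and lists were chosen with earlier results of these data known. Named are the members, Arc, Fos, Npas4 and Egr1, and from each list the genes called or up to 4 with the largest change; Actb, Vcl, Itgav, Hbegf, F3, Lif, Il11, Cxcl1, Ankrd1, Amotl2, Axl, Igfbp3, Ednrb, Fosb, Srf, Mcl1, Cd47, Esam and the genes not detected were added for their roles, after their values were seen.

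Deviations from the group mean correlated between arrays of the same replicate number by 0.23 to 0.39 for TTX with W15. For TTX with W45 the range was 0.12 to 0.37, and for W15 with W45 it was 0.06 to 0.18. No such value is given for arrays of unlike number, so whether the numbers pair the samples cannot be told from these. The labels state no pairing, and the main fit held no replicate block. Alternatives were quantile or no scaling, normexp, other filters and probe rules, slide and replicate blocks, another spread model, fewer groups and leaving out each array. The sequence of the Ccn2 probe is not reported here.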

Additional observations from a re-analysis of the deposited data

How the results depend on the processing

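The members were chosen with the 45 min arrays in view, and Edn1 passed the detection filter only through W45, so their calls at 45 min are listed here and support nothing. With normexp Edn1 was not called (1.22 against TTX and 0.51 against 15 min). With normexp and without W15 replicate 1, chosen after seeing the data, both were called (1.22 and 1.15). The 2 members called in each of these comparisons became 1 with normexp and 1 with only probes above background on all arrays, where Edn1 is not tested. Leaving out 1 array gave 0 members at 15 min and 2 members at 45 min in all fits.

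The 4 list genes called at 15 min became 2 with normexp, 7 with a trended and robust spread and 0 with slide as a fixed block. They became 1 to 4 when 1 array was left out (1 without TTX replicate 2 or W15 replicate 2, 2 without TTX replicate 3). Calls over all features moved too. Of 25786 features, 6 were called higher at 15 min in the main fit, 2 with normexp, 10 with that spread and 0 with that block. Without TTX replicate 2 or W15 replicate 2 there were 2, and without TTX replicate 3 there were 3. The 8 at 45 against 15 min became 5 with normexp and 5 without a filter on dim probes. They became 5 to 10 when 1 array was left out (5 without W15 replicate 1, W15 replicate 2 or W45 replicate 2). Over all features, the 31 called higher in that comparison became 15 with normexp and 19 without the filter. Without those 3 arrays, in the order named, they became 18, 19 and 18. The 11 at 45 min against TTX stayed between 8 and 11 when 1 array was left out. With the replicate number as a block these counts were 4, 7 and 10, and no call of a member changed.

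Differences that were not called changed sign as follows. Edn1 at 15 min had 0.71 with normexp and 0.0751 with normexp without W15 replicate 1. Ccn2 at 15 min had 0.40, 0.33 and 0.0805 with normexp, slide as a fixed block and normexp without W15 replicate 1, and ran from -0.20 to 0.0741 when 1 array was left out (above 0 without TTX replicate 3 or W15 replicate 1). Ccn2 at 45 min had -0.19 without scaling, where all features had a median of -0.21. The value of Ccn2 ran from -0.0728 (without TTX replicate 1) to 0.20 when 1 array was left out. Against 15 min Ccn2 had -0.26 with normexp, where all features had a median of -0.20. There it ran from -3e-04 (without W15 replicate 1) to 0.232 when 1 array was left out. The cause was not tested. Plaur and Thbs1 were tested only without a filter on dim probes, where neither was called. Signal over background limits both genes, and Edn1 before 45 min.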
